A study of Homo sapiens with 2 samples.

Results

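The genes described here are the 55 protein-coding genes of a knockout screen for which at least 4 separate guides were read after sorting and not before it. They were found in the guide count table by leaving out non-targeting and microRNA rows and rows whose counts both equalled those of a row next to them, and then taking each gene with 4 or more remaining guides that had 0 reads in the unsorted library and at least 1 read in the sorted library. The table lists 19051 protein-coding genes with 114123 guide rows, 111878 of which remained. The 55 genes have 6 guides each, 330 in all. Of these, 222 met the condition, as did 12.0% of all guides kept, and the 55 genes were 0.294% of the 18693 genes with at least 4 guides kept. The genes were chosen by their read counts in these libraries, so the counts are given as a description and no test was made on them.

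The screen was run in SK-OV-3, an established human ovarian cancer cell line, into which the study had put a reporter of 2 fluorescent proteins for transcriptional readthrough (TRT) between COMMD3 and the downstream gene BMI1, with mCherry placed before and EGFP after the stretch that joins them. The cells behind both libraries were infected with lentivirus carrying the GeCKO v2.0 pool of Cas9 guides, at a multiplicity of infection near 0.3, and selected with puromycin at 2 µg/mL. Genomic DNA came from unsorted cells and from TRT-negative (mCherry+ EGFP-) cells, with 1 library of each. The label of the control library carries the names of both fluorescent proteins, which could also stand for a double-positive sort, and the library was read as unsorted from the description of the experiment. The 2 libraries held 12882989 and 12444427 reads. Of the 123411 guides in the table, 12956 were read in the unsorted library and 28064 in the TRT-negative library. Most guides in the table thus had 0 unsorted reads. Without replicates no difference between them could be tested, and the intervals given are exact 95% intervals for counting error only, since PCR copies of a guide are not independent molecules.

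In a pooled knockout screen each cell usually carries a single guide, and the guide cassette in its genome serves as a barcode of the gene that was cut. Cas9 makes a double-strand break at the site the guide matches, and faulty repair of the break often disrupts the reading frame. A gene whose loss moves cells into the sorted gate should gain barcodes there through several of its guides, which is why agreement between guides aimed at different sites of a gene is the usual criterion in such screens. The GeCKO pool is made in 2 sub-libraries, A and B, which hold 3 different guides each for most genes. The guide sequences were not used here, so guides are named by gene, sub-library and read count.

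Over the whole table, 13372 of the 111878 guides kept were read only after sorting. Among the 18693 genes with at least 4 guides kept, 8822 had no such guide (47.2%), 6970 had 1 (37.3%), 2393 had 2 (12.8%) and 453 had 3 (2.42%). There were 53 genes with 4 such guides and 2 genes with 5, DSG2 and RRAGA, and no gene had all 6. The rule itself sets the count of 55, so nothing is read from it.

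Guides of these genes had low read counts. The 222 guides had between 1 and 665 TRT-negative reads, with a median of 33 and quartiles of 19 and 48. The 13150 other protein-coding guides read only after sorting had a median of 35 reads and quartiles of 21 and 56. Together the 222 guides held 9809 reads, 0.0788% of the TRT-negative library. Of the 222, 60 had 10 to 29 reads, 90 had 30 to 59, 28 had 60 to 99 and 13 had 100 or more, which left 31 with under 10. A single read was all there was for 11 guides (4.95%, against 2.87% of the other guides read only after sorting).

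Guides at these read counts mostly lacked unsorted reads whatever gene they were aimed at. Of all protein-coding guides with 10 to 29 TRT-negative reads, 92.8% had no unsorted read (interval 92.0% to 93.6%), and the share was 93.3% of those with 30 to 59 reads (interval 92.6% to 94.0%). It was 83.3% at 60 to 99 reads and 33.5% from 100 to under 300 reads, and 2.64% from 300 to under 1000 reads. Only 2 of the 222 guides lay in that last range, the MPC1L guide with 665 reads and a KAT5 guide with 312. A guide that was read in the unsorted library had a median of 770 reads there.

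The 2 sub-libraries took similar parts in the count. Sub-library A gave 109 of the 222 guides and sub-library B 113, beside 54.2% from A among the other guides read only after sorting. In 31 genes the 4 guides were split evenly, with 2 from each, while 12 genes had 1 from A and 3 from B and 10 genes had 3 from A and 1 from B. DSG2 had 3 from A and 2 from B, and RRAGA had 2 from A and 3 from B.

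Whether the guides of a gene were read together was described by setting a gene's guides in B against its guides in A, over the genes with all 3 guides kept in each. Where no A guide was read only after sorting (11777 genes), this was the case for 11.1% of the B guides (interval 10.7% to 11.4%). The share was 11.3% for the 5299 genes with 1 such A guide (interval 10.9% to 11.8%) and 11.4% for the 808 genes with 2 (interval 10.2% to 12.7%). For the 42 genes in which all 3 A guides were read only after sorting it was 9.52% (interval 5.02% to 16.0%). In the other direction, the A guides stood at 13.0% for genes with no such B guide and at 13.1%, 13.8% and 14.4% for genes with 1, 2 and 3. Thus, in each direction the 4 intervals overlapped.

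A stricter measure compares the reads of a guide after and before sorting. The log2 ratio of normalized TRT-negative to unsorted reads, with 1 added to each, was called high above 5.93 on the log2 scale, the value that 95 of 100 non-targeting guides did not exceed. Guides without an unsorted read passed from 60 TRT-negative reads, so for them the measure is a cut on read count and not on a rise. Of all protein-coding guides 2.87% passed, and 41 of the 330 guides of the 55 genes did (12.4%, interval 9.07% to 16.5%), a share raised by the choice of the genes. Taken over guides read only after sorting, 18.5% passed in the 55 genes and 22.3% among all protein-coding genes. No gene had more than 2 guides above the threshold: 10 genes had 2, 21 genes had 1 and 24 genes had none. Among the 10 genes were ATF3, DUSP9, GMCL1, KAT2B, KAT5, KRTAP5-8, NAA10, PKM and PKMYT1.

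The genes are described in groups by the role of the protein. These groups were drawn up once the genes were known and serve only to order the account. Read counts are TRT-negative reads of guides with 0 unsorted reads unless an unsorted count is stated, and guides not mentioned had no read in either library. Positions are gene spans on hg38 from GENCODE 44.

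The group for chromatin and transcription held 9 genes and 36 such guides, with a median of 31.5 reads. KAT5 (chr11:65711996-65719604), the acetyltransferase at the heart of the TIP60 complex, had guides with 250 and 50 reads in sub-library A and with 312 and 11 in B. Its 4 guides summed to 623 reads (Poisson interval 575 to 674), the second highest sum of the 55 genes. A floor of 3 unsorted reads covers the sampling of reads in the unsorted library and not that of cells or DNA. After normalization, the TRT-negative reads of the 2 best-read KAT5 guides were 108 and 86.5 times this floor. The guides were chosen for lacking unsorted reads, and sampling of their TRT-negative reads is not covered. These ratios therefore set no lower limit on a rise after sorting. KAT2B (chr3:20040446-20154404), also called PCAF, is another lysine acetyltransferase that acts on histones as a coactivator. It had guides with 209 and 35 reads in A and with 7 and 70 in B, so that a single guide carried most of its 321 reads.

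PHF1 and MED15 also had 4 such guides each, but with fewer reads. PHF1 (chr6:33410399-33416453), a Tudor-domain partner of Polycomb repressive complex 2, had guides with 1, 5 and 33 reads in A and with 29 in B. A further PHF1 guide was well read in both libraries, with 761 unsorted and 664 TRT-negative reads. MED15 (chr22:20495913-20587632), a tail subunit of Mediator, had guides with 2, 24 and 9 reads in A and 21 in B. Their sum of 56 (Poisson interval 42.3 to 72.7) was the lowest of the 55 genes.

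Sequence-specific factors and their partners made up the rest of the group. ATF3, a stress-induced bZIP factor, had guides with 16, 8 and 62 reads in A and 62 in B. LMX1B (chr9:126613928-126701032), a LIM homeodomain factor of limb, kidney and neuronal development, had 47 and 42 reads in A and 48 and 173 in B, and with LMO1, a LIM-only cofactor with 48, 42 and 17 reads in A and 52 in B, it was among the genes with no guide under 10 reads. RFXANK, a subunit of the RFX complex at MHC class II promoters, had an even set, with 29 and 28 reads in A and 23 and 21 in B. ZNF449 (chrX:135344796-135363413), a zinc finger protein, had 34 and 30 reads in A and 13 and 230 in B. The ZNF449 guide with 34 reads lay beside a KRTAP6-1 guide with the same counts when only protein-coding rows were kept in the table.

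Enzymes of metabolism were represented by 8 genes with 32 such guides and a median of 38 reads. PKM (chr15:72199029-72231819), the pyruvate kinase that makes pyruvate at the end of glycolysis, had guides with 49, 93 and 153 reads in A and 45 in B. The lowest of these 4 counts was the highest lowest count of any of the 55 genes. MPC1L (chrX:40623428-40624136), a testis-expressed relative of the mitochondrial pyruvate carrier, had 13 and 15 reads in A and 32 and 665 in B, and another guide that went from 603 unsorted to 1107 TRT-negative reads. Its sum of 725 (Poisson interval 673 to 780) was the highest of the 55 genes. The guide with 665 reads held most of it, at 230 times the floor of 3 unsorted reads.

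MTHFD2, a mitochondrial enzyme of folate-dependent 1-carbon metabolism, had 4 and 40 reads in A and 61 and 34 in B. MMAB, which adenosylates cobalamin, had 18 reads in A and 25, 39 and 54 in B. MOCS2, a subunit of molybdopterin synthase, had 38 reads in A and 42, 38 and 21 in B, a narrow spread. The other metabolic genes had a guide of under 10 or of over 100 reads among the 4. ELOVL1, an elongase of very long chain fatty acids, had 50 and 49 reads in A but 5 and 19 in B. PBLD had 21 and 7 reads in A and 61 and 26 in B. PNLIPRP1, a pancreatic lipase-related protein, had 38 and 172 reads in A and 41 and 21 in B.

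Signalling enzymes and adaptors formed a group of 8 genes and 33 guides, with a median of 34 reads and a highest count of 88. RRAGA (chr9:19049427-19051025) encodes a Rag GTPase that brings mTORC1 to the lysosome when amino acids are present. It was 1 of the 2 genes with 5 such guides, at 51 and 1 reads in A and 1, 28 and 14 in B, and with the single-read guides left out it had 3. DUSP9 (chrX:153642492-153651326), a dual-specificity phosphatase of MAP kinases, had 72 and 82 reads in A and 33 and 57 in B. MOK (chr14:102224500-102305190), a kinase related to MAP kinases, had 66 and 47 reads in A and 34 and 50 in B, with another guide that went from 482 to 197 reads. DUSP9 and MOK had no such guide under 30 reads.

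The other members of the group were read less evenly. PKMYT1, which inhibits CDK1 before mitosis, had 65 reads in A and 88, 23 and 2 in B. TNFAIP1, an adaptor for cullin-3 ubiquitin ligases, had 15, 33 and 45 reads in A and 47 in B. TENC1, now TNS2, is a focal adhesion protein and had 4, 37 and 26 reads in A and 1 in B. EDARADD, the adaptor of the ectodysplasin receptor, and AKAP14, which anchors protein kinase A, also depended on a guide with 1 read. EDARADD (chr1:236348257-236502915) had 8, 42 and 37 reads in A. AKAP14 (chrX:119895837-119920716) had 30, 45 and 42 in A, and its last B guide went from 2508 to 3665 reads.

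The group for protein modification and tRNA export held 3 genes, and all 12 guides had at least 10 reads. NAA10 (chrX:153929225-153935080), the catalytic subunit that acetylates protein N termini, had 13 and 72 reads in A and 22 and 62 in B. NAA10 and DUSP9 were the closest pair of the 55 genes on a chromosome, 0.278 Mb apart on X. XPOT (chr12:64404392-64451125), the exportin of tRNA, had 35 reads in A and 30, 32 and 36 in B, a range of a few reads. ZDHHC2, a palmitoyltransferase, had 15 and 15 reads in A and 37 and 17 in B.

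Secreted ligands and receptors numbered 7 genes and 28 guides, with counts from 1 to 80. BMP15 (chrX:50910735-50916641), an oocyte growth factor, had 44 reads in A and 29, 36 and 63 in B, and DHH (chr12:49086656-49094801), a hedgehog ligand of the gonad and nerve sheath, had 32 and 50 in A and 46 and 35 in B. IL22RA1 (chr1:24119771-24143140), the interleukin-22 receptor of epithelia, had 27 reads in A and 80, 42 and 41 in B. SEMA4A, a semaphorin, had 19 and 17 reads in A and 29 and 31 in B. The orphan receptor GPR148 (chr2:130729070-130730336) had 54 reads in A and 63, 38 and 19 in B. These 5 genes had no unsorted read in any guide.

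The olfactory receptors OR3A2 and OR8G1 belong to a family whose expression is largely limited to the nasal epithelium, and each was included through a guide with 1 read. OR3A2 (chr17:3276177-3386317) had 9 and 46 reads in A and 47 and 1 in B. OR8G1 (chr11:124241095-124254364) had 31 reads in A and 23, 41 and 1 in B. A further OR8G1 row, with 132 unsorted and 106 TRT-negative reads, had the same counts as an adjacent row of OR8G5 and was left out of the count.

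Channels and transporters contributed 6 genes and 24 guides. SLC15A1, SLC8A3 and NKAIN4 had no such guide under 10 reads. SLC15A1 (chr13:98683801-98752672), the intestinal peptide transporter, had 18 and 17 reads in A and 102 and 20 in B. SLC8A3 (chr14:70044215-70189480), a sodium-calcium exchanger, had 30 and 23 reads in A and 33 and 68 in B. NKAIN4 had 13 and 37 reads in A and 158 and 40 in B. The cation channel TRPM2 had 1 and 80 reads in A and 3 and 41 in B.

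Genes of adhesion, the cytoskeleton and trafficking numbered 8, with 33 guides and a median of 33 reads. DSG2 (chr18:31498177-31549008), a desmosomal cadherin, was the other gene with 5 such guides, which had 27, 31 and 16 reads in A and 64 and 39 in B. It was the only gene with 5 such guides of at least 10 reads. CD2AP, an actin-linked scaffold, had 105 reads in A and 41, 27 and 14 in B, and MYH14, a nonmuscle myosin heavy chain, had 91 and 23 in A and 30 and 47 in B. SRGN, the proteoglycan of secretory granules, had 60 reads in A and 32, 34 and 26 in B.

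GOLGA3 (chr12:132768902-132829143), a Golgi coiled-coil protein, had 51 and 19 reads in A and 1 and 39 in B. PFN3 (chr5:177400109-177400661), a testis profilin, had 18 and 8 reads in A and 55 and 33 in B, beside a guide that went from 1040 to 1410 reads. KRTAP5-8 (chr11:71538025-71539209), a hair keratin-associated protein, had 12 and 2 reads in A but 71 and 77 in B. It comes from a family of similar genes, and whether its guides match more than 1 of them was not tested.

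The other 6 genes are less studied. GMCL1 had 9 and 18 reads in A and 75 and 124 in B, and LCN10, a lipocalin of the epididymis, had 23 and 31 in A and 27 and 169 in B. SH3BGRL2 (chr6:79631329-79703655) had 44, 28 and 85 reads in A and 41 in B, and a guide that went from 236 to 196. NCKAP5 had 33 reads in A and 21, 54 and 40 in B. CCDC71 and PROB1 each held a guide of 2 or 3 reads among others between 25 and 46: CCDC71 had 2 and 36 in A and 31 and 25 in B, and PROB1 had 3 in A and 46, 45 and 34 in B.

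How well each gene was carried by its 4 best-read guides was described by the fourth of them. The count of the fourth guide ranged from 1 to 45 reads over the 55 genes, with a median of 13, while the best-read guide ranged from 24 to 665 with a median of 62. With at least 10 reads asked of each guide, 32 genes remained and 23 did not. In 10 genes the fourth guide had a single read. Among these, AKAP14, EDARADD, GOLGA3, OR3A2, OR8G1, PHF1, TENC1 and TRPM2 fell below 4 guides without it, as did RRAGA without its 2 guides of 1 read. No gene had 4 guides with at least 60 reads.

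A gene could also hold guides that were well read before sorting. Of the 107 guides of the 55 genes that were kept and not read only after sorting, 7 had unsorted reads (6.54%, interval 2.67% to 13.0%), and the others were unread in both libraries. Over all protein-coding genes the corresponding share was 10.9%. With the omitted OR8G1 row, 8 of the 55 genes had such a guide. TRT-negative reads exceeded unsorted reads for AKAP14, MPC1L and PFN3 and were fewer for MOK, PHF1, SH3BGRL2 and OR8G1, among others. For these 8 genes, the guide read in both libraries went in no common direction.

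Just outside the threshold stood 453 genes with 3 guides read only after sorting. The 5 of them highest in the lowest-read of their 3 guides, chosen after their values were seen, were as follows. CHERP, a spliceosome-associated protein, had 620, 97 and 90 reads, SLC1A6, a glutamate transporter, had 92, 87 and 86, and OR2T8, an olfactory receptor, had 206, 88 and 78. USH1G had 157, 132 and 68 reads and LCMT2 had 127, 65 and 64. The third guide of the 453 genes had a median of 18 reads, and 29.6% of these genes had a guide read in the unsorted library, against 14.5% of the 55 genes, which have fewer guides left that could be.

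Gene lists placed the 55 genes among related genes. Of 13 genes singled out by the study from these same libraries, a choice that is no independent evidence, KAT5 was among the 55, and 8 of the 13 had at least 2 guides read only after sorting, as did 15.5% of all genes with at least 4 guides kept. Over the guides kept of the 13 genes 29.5% were read only after sorting (interval 19.7% to 40.9%), beside 12.0% of all guides. KAT5 stood alone among the 19 subunits listed for the TIP60 complex. DMAP1, another subunit, came next with 2 such guides of 26 and 29 reads, and 12 of the 19 had none. Over the guides kept of the complex 9.82% were read only after sorting (interval 5.01% to 16.9%), beside 12.0% of all guides. That share counts 11 guides, 4 of them from KAT5, which the rule had chosen.

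PKM was the only gene of 17 in the glycolysis list with more than 2 such guides. GAPDH had 2, with 60 and 25 reads, 8 genes had none, and the list stood at 12.7% of its guides (interval 6.96% to 20.8%). PKM, also chosen by the rule, gave 4 of the 13 guides behind this share. Of 10 MAP kinase phosphatases, DUSP9 had 4, and DUSP2 and DUSP7 had 2 each, with 30 and 15 and with 33 and 28 reads. This list stood at 21.7% of its guides (interval 12.1% to 34.2%). DUSP9, which the rule had chosen, gave 4 of the 13 such guides and so raised the share. No gene of the cleavage and polyadenylation list (29 genes), the RNA polymerase II subunits (12 genes) or the glutamate transporters (8 genes) was among the 55. The highest in each had 3 guides, SYMPK with 223, 1 and 81 reads, POLR2I with 26, 34 and 55, and SLC1A6.

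Gene families told by their symbols held few of the 55. There were 2 of 376 olfactory receptors (0.532%), 2 of 372 solute carriers (0.538%), 1 of 497 numbered zinc finger genes (0.201%), 1 of 94 GPR receptors (1.06%) and 1 of 150 keratin and keratin-associated genes (0.667%), beside 0.294% of all genes. No histone, ribosomal protein or mitochondrial ribosomal protein gene was among them. Guides read only after sorting made up 11.9% of olfactory receptor guides, 11.9% of solute carrier guides and 9.44% of ribosomal protein guides (interval 7.17% to 12.1%). The olfactory receptor and solute carrier shares lay at the 12.0% of all guides.

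All 55 genes were placed on hg38, TENC1 under its present name TNS2. They lay on 21 chromosomes, with 6 on chromosome 1 (10.9%, against 10.4% of all genes placed), 5 each on chromosomes 2 and 12, and 6 on X (10.9%, against 4.18% of all genes). The genes on X were AKAP14, BMP15, DUSP9, MPC1L, NAA10 and ZNF449. None lay on chromosomes 4, 7 or Y. The median gene span was 24.9 kb in the 55 genes and 28.0 kb in all genes placed. These are descriptions of a list of 55, and no test over genes was made.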

How the data were processed

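Guide DNA was counted in 2 libraries, 1 unsorted and 1 TRT-negative. The authors deposited raw counts of reads per guide and a second table in which normalization had multiplied each unsorted count by 0.982 and each TRT-negative count by 1.02, used here as a signal. The submitters' processing notes name MAGeCK and hg38, while the version is not given in the sources used here. Deposited tables with the authors' own ratios, p-values and ranks were not used.

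Rows with counts equal to those of an adjacent row were dropped (2245 protein-coding rows), as these may be guides of identical sequence. Shares carry exact Clopper-Pearson and summed reads exact Poisson 95% intervals. The code of the rule was checked on simulated data. Those data held planted genes and no other guide read only after sorting. The check therefore did not gauge how often unrelated guides of a gene are read together. The genes and gene lists were chosen with earlier results of these data known. Every guide was printed for the genes with 5 such guides, those highest and lowest in the fourth guide, list members and genes with most unsorted reads, and the others were added after their values were seen, while 3 of the 55 genes are not reported here by name. Of 19051 symbols 18636 matched GENCODE 44, older ones through RefSeq synonyms. Alternatives covered the read minimum, guides per gene, equal rows, scaling and pseudocount. Python 3.11.15, numpy 2.4.6, pandas 2.3.3 and scipy 1.17.1 were used.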

Additional observations from a re-analysis of the deposited data

How the results depend on the processing

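The 55 genes with 222 guides read only after sorting became 32 genes with 129 guides when each guide needed at least 10 TRT-negative reads, and 0 genes with 0 guides when it needed at least 60. With 3 or more guides per gene there were 508 genes with 1581 guides, and with 5 or more there were 2 genes with 10 guides. With every row kept there were 81 genes, with rows equal to a row up to 5 rows away also dropped 42, and with up to 3 unsorted reads allowed 61. With neighbours taken after the microRNA and non-targeting rows were left out, an alternative chosen after seeing the data, there were 54, all among the 55, and ZNF449 was lost. The median of the guides' reads lay between 27.5 and 37 under every alternative that left a gene. The 41 guides with a high log2 ratio became 10 when the limit set by non-targeting guides was moved from their 95th to their 99th percentile, and were 40 or 41 under total-count scaling, pseudocounts of 0.5 and 5, and with each non-targeting guide entered once. No paired analysis was possible because each condition had 1 library. For the same reason no replicate could be left out. With 1 library of each condition, a guide with a few reads cannot be told from one that was missed. The number of cells behind each read is not known here.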

Other observations

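Keeping every row added 26 genes to the 55, and most of these were near-identical copies. CXorf49 and CXorf49B shared 4 rows with 21, 42, 86 and 198 TRT-negative reads, DAZ1 to DAZ4 shared 4 rows with 5, 29, 32 and 103 reads, and NOMO1 and NOMO2 shared 4 with 31, 39, 40 and 58. TP53TG3, TP53TG3B and TP53TG3C shared 5 rows with 7, 8, 21, 24 and 77 reads. VCY, XAGE1B and RBMY1 genes did likewise. DSCR6 and RIPPLY3 are names of the same gene, and shared rows with 21, 51 and 105 reads. GCH1, OR10X1 and TRAPPC5 missed the 55 by 1 row each, which had the same counts as an adjacent row of SUN5, LRR1 and SPATS2L, at 43, 21 and 21 reads. Whether those rows share a guide sequence was not tested.

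In the opposite direction, 562 protein-coding guides (0.502% of those kept) were read only in the unsorted library. No gene had more than 2 of them, and 12 genes had 2. LEO1, a subunit of the PAF1 elongation complex, had guides with 1 and 2 unsorted reads, SMARCA4, the ATPase of SWI/SNF, had 1 and 1, and AKAP1 had 1 and 35. The highest count among the 12 genes was 217 unsorted reads, for a PRRG4 guide. No microRNA had 4 guides read only after sorting, and 10 had 3. Each non-targeting guide entered once, 190 of 1000 were read only after sorting (19.0%), with a median of 37 reads, against 12.0% of protein-coding guides. Non-targeting guides are listed in both sub-libraries.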
